A study of Rattus norvegicus with 60 samples.

Results

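Magi1, Magi2 and Magi3 encode the MAGI scaffold proteins, and their probe sets were followed across 5 brain regions of congenic and NP rats. A probe set is the array's unit for a transcript. Every probe set that the platform's annotation gave the symbol Magi1, Magi2 or Magi3 was taken, which gave 2 of the 14217 genes with a symbol of their own and 8 of 31042 probe sets, 5 for Magi1 and 3 for Magi3. No probe set of the annotation used here carried the symbol Magi2, so Magi2 was not analysed here. The genes were selected on a measured value, the difference of Magi1 between the lines in these same arrays, so every comparison of the lines below is a description of these probe sets without a test. The regions, and the interaction of line with region, were not used in that choice and were tested.

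RNA came from 12 adult rats, each of which gave accumbens, amygdala, frontal cortex, hippocampus and striatum, for 60 arrays. Of these rats, 6 were of the congenic line NP.P (animal numbers 1, 2, 3, 4, 9 and 10) and 6 were of the selected non-preferring line NP (5, 6, 7, 8, 11 and 12). From general knowledge of these lines rather than from the labels, NP rats were bred for low alcohol preference and NP.P rats carry a chromosome 4 segment of the alcohol-preferring line on the NP background. All rats were housed in pairs with free food and water and were untreated apart from daily handling, and the labels give no age beyond adult, no sex and no extent of the segment. RNA of each rat was labelled and measured on its own array, so the replicates were separate animals.

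MAGI proteins belong to the membrane-associated guanylate kinase family, with the domain order of the family turned round. Their PDZ and WW domains hold receptors, adhesion molecules and signalling proteins in place at cell junctions and at synapses. Magi1 is known from tight and adherens junctions and also from neurons, Magi2 from the postsynaptic membrane of excitatory and inhibitory synapses, and Magi3 from binding receptors of Wnt signalling. Magi1 and Magi2 lie on rat chromosome 4 and Magi3 on chromosome 2.

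The array medians ran between 8.23 and 8.35 on the log2 scale. Of the arrays, 7 stood apart from the others of their labelled region, namely accumbens congenic 9 and NP 8, amygdala congenic 3 and NP 6, and hippocampus congenic 3, NP 8 and NP 11. They fell under 0.98 in median correlation with those arrays or under 0.5 in correlation with the region's profile, NP 11 by the first measure alone. Accumbens congenic 9, amygdala NP 6 and hippocampus NP 11 still resembled their own region most. The arrays labelled amygdala congenic 3 and hippocampus congenic 3 resembled each other's region most. The array labelled accumbens NP 8 resembled hippocampus most and the one labelled hippocampus NP 8 accumbens. No label was changed, and results that rest on these arrays are given with and without them, 53 arrays then remaining. With all arrays, 8 of 8 measured markers of medium spiny neurons were higher in striatum than in the other regions and 5 of 5 of hippocampal neurons in hippocampus. Of the markers of cortical excitatory neurons 3 of 5 were higher in frontal cortex, and 4 of 5 also in striatum, and of the amygdala markers 1 of 2 was higher in amygdala. Of all measured genes, 23.3% were higher in striatum, 37.8% in hippocampus, 39% in frontal cortex and 33.9% in amygdala.

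Of the 8 probe sets, 6 passed the filter on low values, a mean over all arrays at or above the 40th percentile (7.68 log2 units), which 18625 probe sets passed. Those of Magi1 had means of 9.87 for 1381871_at, 8.79 for 1390552_at, 8.45 for 1384504_at and 8.42 for 1397438_at. Those of Magi3 had means of 10.84 for 1398866_at and 10.18 for 1387753_s_at. The other 2 lay below the filter, 1375605_at of Magi1 at 5.92 (11.1 percentile of all probe sets) and 1375479_at of Magi3 at 6.58 (21.9 percentile), and were described without a test. Probe sets bind with different strength, so these values do not rank transcripts by abundance, and "brightest" below refers to array signal alone.

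The sequences just upstream of both genes that were measured are shown because most of their probe sets past the filter shared much of their pattern over regions, described further on. Each is the 250 bases before the annotated start, on the minus strand and read toward the gene, from RefSeq on the GRCr8 build, at chr4:128368227-128368476 for Magi1 and chr2:194405148-194405397 for Magi3. Capitals mark GC boxes, searched as GGGCGG on both strands.
Magi1: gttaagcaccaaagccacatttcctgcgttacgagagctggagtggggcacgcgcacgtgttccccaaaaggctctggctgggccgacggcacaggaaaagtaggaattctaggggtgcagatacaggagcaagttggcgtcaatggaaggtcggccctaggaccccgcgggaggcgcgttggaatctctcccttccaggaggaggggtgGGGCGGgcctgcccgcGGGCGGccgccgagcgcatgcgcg
Magi3: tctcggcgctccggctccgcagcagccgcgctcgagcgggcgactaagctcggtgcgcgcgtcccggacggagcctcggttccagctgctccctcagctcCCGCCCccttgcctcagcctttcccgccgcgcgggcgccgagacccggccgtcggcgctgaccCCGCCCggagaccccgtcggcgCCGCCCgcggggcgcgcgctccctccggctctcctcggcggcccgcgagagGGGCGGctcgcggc
The Magi1 window held 2 GC boxes and the Magi3 window 4, and 30.47% of 33469 rat promoter windows of the same length held at least 1. The G and C content was 64.8% with 22 CpG pairs for Magi1 and 80.4% with 46 CpG pairs for Magi3, where the median over all windows was 51.2% and 5. The Magi1 window also held 1 E-box, searched as CACGTG, which 5.593% of all windows held. Neither window held the letters TATAAA (in 12.93% of all windows) or the cyclic AMP response element TGACGTCA (in 1.587%) on either strand. Whether these motifs are bound in these tissues was not measured.

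Magi1 was higher in congenic than in NP rats by its brightest probe set, 1381871_at, and by 1384504_at, and the other 3 probe sets of the gene had differences between 0.03 and 0.08. Averaged over the 5 regions of each animal, 1381871_at lay at 9.87, 10.12 and 10.25 (lowest, median and highest) in congenic rats, against 9.58, 9.66 and 9.67 in NP rats. The lowest congenic rat was above the highest NP rat. The means were 10.11 ± 0.14 in congenic and 9.64 ± 0.05 in NP rats (SD, n = 6 each), a log2 difference of 0.47 or 1.39-fold, and the difference was 0.48 without the 7 arrays. By 1384504_at the means were 8.56 ± 0.05 in congenic and 8.33 ± 0.03 in NP rats (SD, n = 6 each), a difference of 0.23 or 1.17-fold. These animal means did not overlap, but without the 7 arrays they did (difference 0.21). Of the 6 members past the filter, 2 had congenic animal means all above the NP means, where the background was 0.156% of all probe sets, a count that the choice of Magi1 fixes in part.

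By region, the mean difference by 1381871_at lay between 0.11 in striatum and 0.92 in accumbens. In accumbens the congenic values were 10.14, 10.39 and 11.31 (lowest, median, highest), against 9.34, 9.63 and 9.66 in NP rats. The groups did not overlap, which held for 0.0644% of all probe sets in accumbens (0.36% without the 7 arrays). The difference was 0.92 from all arrays and 0.72 without the arrays congenic 9, the highest, and NP 8, the lowest. In frontal cortex the congenic values of animals 1, 2, 3, 4, 9 and 10 were 10.78, 9.98, 10.77, 10.61, 10.18 and 10.05, and the NP values ran between 9.72 and 9.92 with a median of 9.79. All congenic rats were again higher (background 0.231%), by 0.58 on average, and animals 1, 3 and 4 stood above the other 3.

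In hippocampus 1381871_at lay at 9.42, 9.70 and 10.48 in congenic rats, against 9.10, 9.17 and 9.58 in NP rats. The groups overlapped with all arrays and did not without the arrays congenic 3, NP 8 and NP 11 (background 1.23%), while the difference was 0.50 either way. In amygdala it lay at 9.01, 10.49 and 10.66 in congenic rats, against 9.72, 10.04 and 10.15 in NP rats. The lowest congenic value was that of animal 3, and the difference was 0.26 with all arrays, 0.50 without animal 3 and 0.46 without the arrays congenic 3 and NP 6, with overlap each time. In striatum it lay at 9.29, 9.63 and 10.03 in congenic rats, against 9.40, 9.55 and 9.65 in NP rats. Here the groups overlapped, and the difference of 0.11 was 0.03 without animal 1, the highest.

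**Figure D1:**
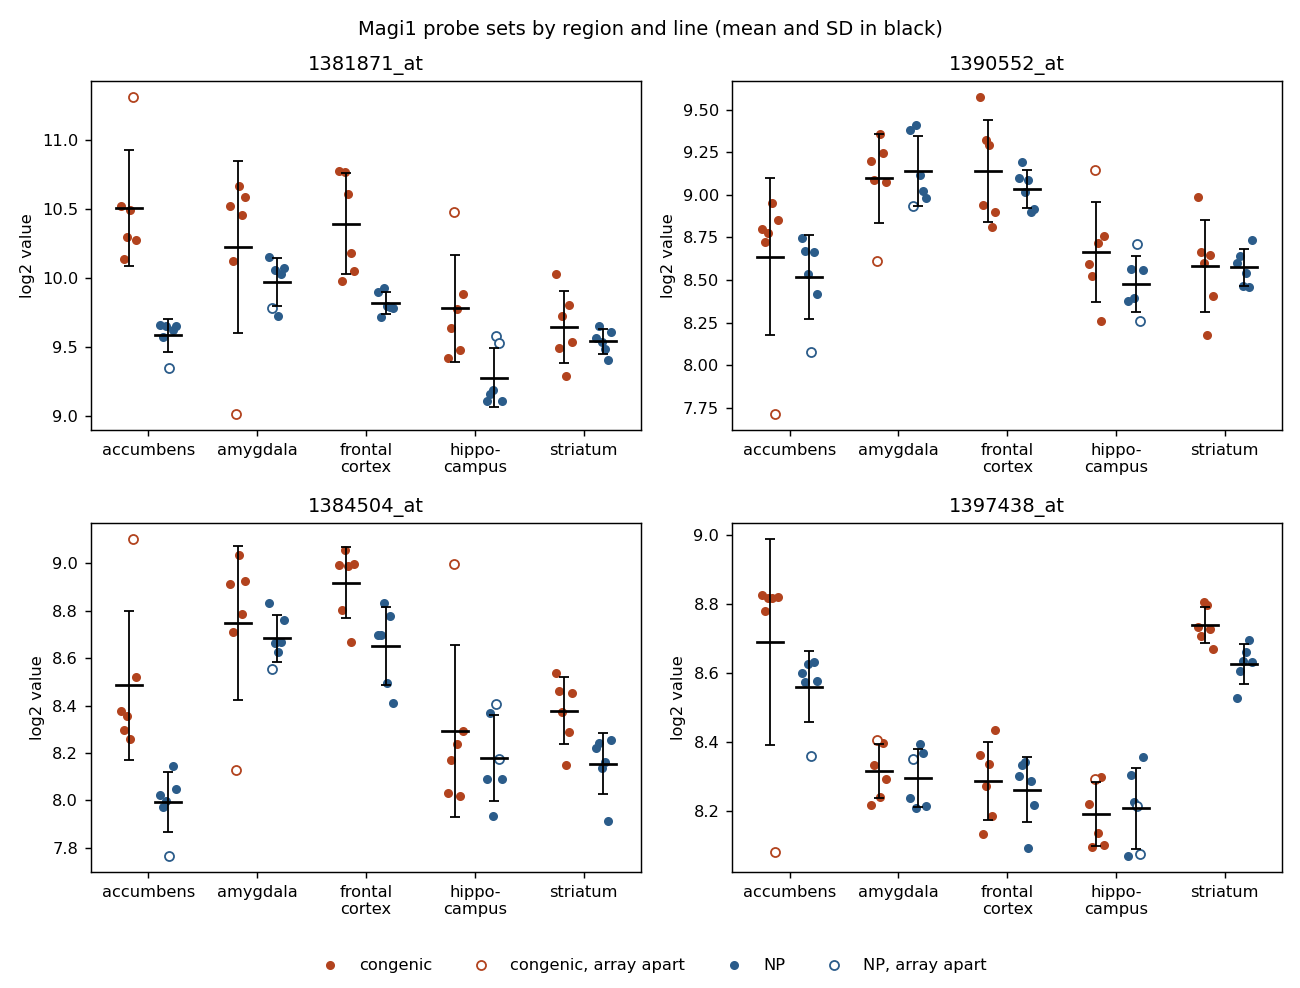
Log2 values of the 4 measured Magi1 probe sets by region, congenic in red and NP in blue, each point 1 animal, bars the mean and SD, open points the arrays that stood apart. By 1381871_at the congenic points lie above all NP points in accumbens and frontal cortex and overlap them in striatum.

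With all arrays, the congenic rats also had larger SDs than the NP rats in all 5 regions by 1381871_at and 1390552_at. They did in 4 of 5 by 1384504_at, 1398866_at and 1387753_s_at, and in 2 of 5 by 1397438_at. By 1381871_at the SD was larger in congenic than in NP rats in all 5 regions, 0.42 against 0.12 in accumbens, 0.63 against 0.18 in amygdala, 0.37 against 0.08 in frontal cortex, 0.39 against 0.22 in hippocampus and 0.26 against 0.09 in striatum. These sizes rested in part on the arrays that stood apart, and without the 7 arrays the SDs were 0.16 against 0.04 in accumbens, 0.21 against 0.17 in amygdala and 0.19 against 0.04 in hippocampus. Of all probe sets past the filter, 8.01% had a larger congenic SD in all 5 regions, and 4.78% without the 7 arrays. The share for 4 of 5 regions was not taken. Without the 7 arrays only 1381871_at of the 6 members had a larger congenic SD in all 5 regions. The others had it in 3 of 5 regions by 1390552_at, 1384504_at and 1387753_s_at, in 2 by 1398866_at and in 1 by 1397438_at. This comparison was chosen after the values were seen and was not tested. In frontal cortex the congenic animals 1, 3 and 4 were also the highest by 1390552_at, at 9.58, 9.32 and 9.29, against NP values between 8.90 and 9.19.

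By 1384504_at the accumbens values were 8.26, 8.37 and 9.10 (lowest, median, highest) in congenic rats, against 7.76, 8.01 and 8.15 in NP rats. These did not overlap (background 0.0644%, or 0.36% without the 7 arrays), with a difference of 0.49 from all arrays and 0.33 without congenic 9 and NP 8. Its difference was 0.27 in frontal cortex, 0.22 in striatum, 0.11 in hippocampus and 0.07 in amygdala, with overlap in these 4 regions. Without the 7 arrays the amygdala difference was 0.16 and the hippocampus difference 0.03, and without animal 3 the hippocampus difference was -0.03.

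The other Magi1 probe sets differed less between the lines. By 1390552_at the animal means were 8.82 ± 0.17 in congenic and 8.75 ± 0.07 in NP rats (SD, n = 6 each), a difference of 0.08 with overlap, and the regions lay between -0.04 in amygdala and 0.19 in hippocampus. Without the 7 arrays the difference was 0.10 in hippocampus and 0.01 in amygdala, and accumbens was the highest region at 0.22, against 0.12 with all arrays. By 1397438_at the difference of the animal means was 0.05, with 0.11 in striatum and 0.13 in accumbens as the highest regions. Its accumbens groups did not overlap without congenic 9 and NP 8 (background 0.36%), with 8.81 ± 0.02 in congenic and 8.60 ± 0.03 in NP rats (SD, n = 5 each). By 1375605_at, below the filter, the difference was 0.03.

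By all 3 probe sets of Magi3, congenic and NP values overlapped in the mean over regions and in each region. Averaged over regions, 1398866_at lay at 10.84 ± 0.11 in congenic and 10.84 ± 0.07 in NP rats, and 1387753_s_at at 10.17 ± 0.04 in congenic and 10.20 ± 0.06 in NP rats (SD, n = 6 each). The low probe set 1375479_at lay at 6.58 ± 0.06 in congenic and 6.57 ± 0.03 in NP rats. By region, the differences of 1398866_at ran between -0.18 in amygdala and 0.16 in hippocampus. The amygdala value was 0.02 without the arrays congenic 3 and NP 6, and the accumbens value of 0.14 was -0.06 without congenic 9 and NP 8.

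**Figure D2:**
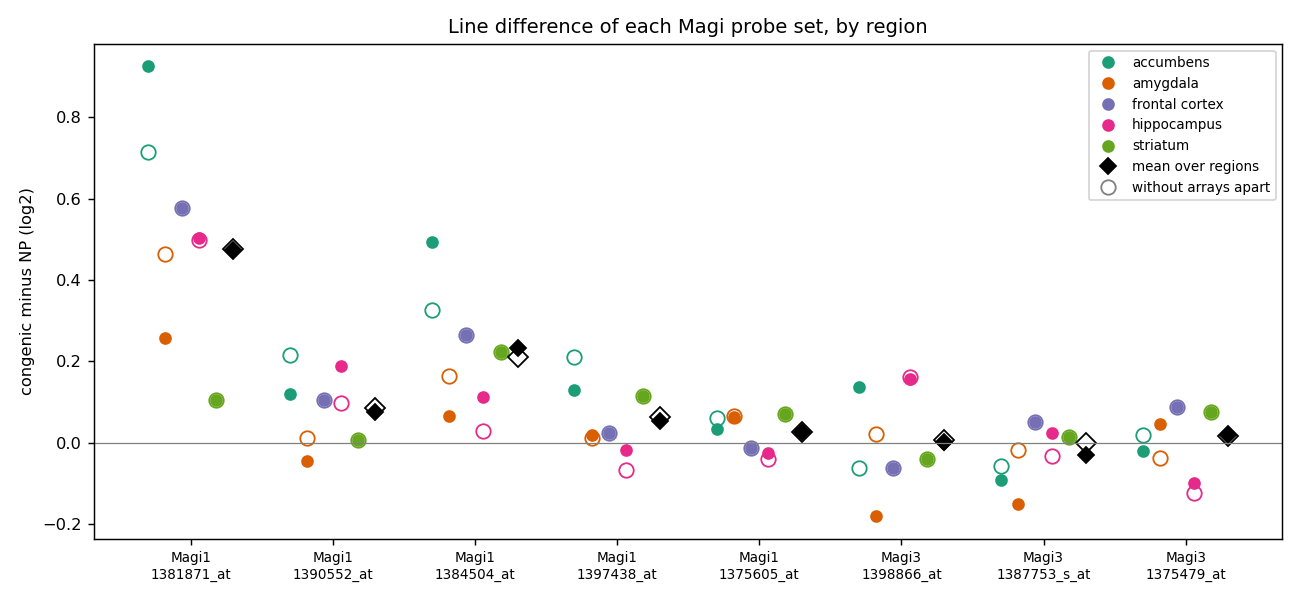
Congenic minus NP difference (log2) of each of the 8 Magi probe sets, colours for regions, diamonds for the mean over regions, open symbols without the arrays that stood apart. By 1381871_at the differences lie between 0.11 in striatum and 0.92 in accumbens, while the Magi3 diamonds lie near 0.

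Whether the line difference varied between regions was tested by the interaction of line and region in limma, with the animal as a block. None of the 6 members was called, and the background was 0 of 18625 probe sets at an adjusted p under 0.05, with 726 at an unadjusted p under 0.05 (3.9%). For 1381871_at the unadjusted p was 0.0375 and the adjusted p 0.998. Without the 7 arrays the unadjusted p of 1381871_at was 0.00193 (adjusted p = 0.203) and that of 1397438_at 0.00871 (adjusted p = 0.296), where 2006 probe sets (10.8%) passed unadjusted and 2 (0.0107%) were called. The sizes of the Magi1 line difference in accumbens and striatum, 0.92 and 0.11, were therefore not shown to differ after adjustment.

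The line differences of the 8 measured genes on each side of Magi1 on chromosome 4 ran between -0.06 and 0.24. Magi1 was at place 379 of 590 measured genes in the GRCr8 order of that chromosome. Of these neighbours 0 of 16 were called between the lines by limma, against a background of 0.123% of all probe sets. With so low a background this says little, here and for the genes around Magi2 and Magi3 below. The median of their differences beside Magi1 was 0.00. The direct neighbour Adamts9, which encodes a secreted protease of the extracellular matrix, had the largest of them, 0.24 ± 0.06 (SE, adjusted p = 0.463), or 0.18 without the 7 arrays (adjusted p = 0.0909). The other named gene was Grip2, a PDZ scaffold that binds AMPA receptors, at 0.12 ± 0.04 (SE, adjusted p = 0.825). Around the place of Magi2, also on chromosome 4, 0 of 16 genes were called. With all arrays the largest difference was -0.16 for the glutamate receptor gene Grm3 (adjusted p = 0.884), followed by -0.16 for the G protein gene Gnai1 (adjusted p = 0.927). Without the 7 arrays Gnai1 lay at -0.00499 and Grm3 at -0.17 (adjusted p = 0.848). Cacna2d1 was then the largest at 0.22 (adjusted p = 0.356), against 0.12 with all arrays. Around Magi3, 0 of 16 were called and the differences ran between -0.06 and 0.04.

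**Figure D3:**
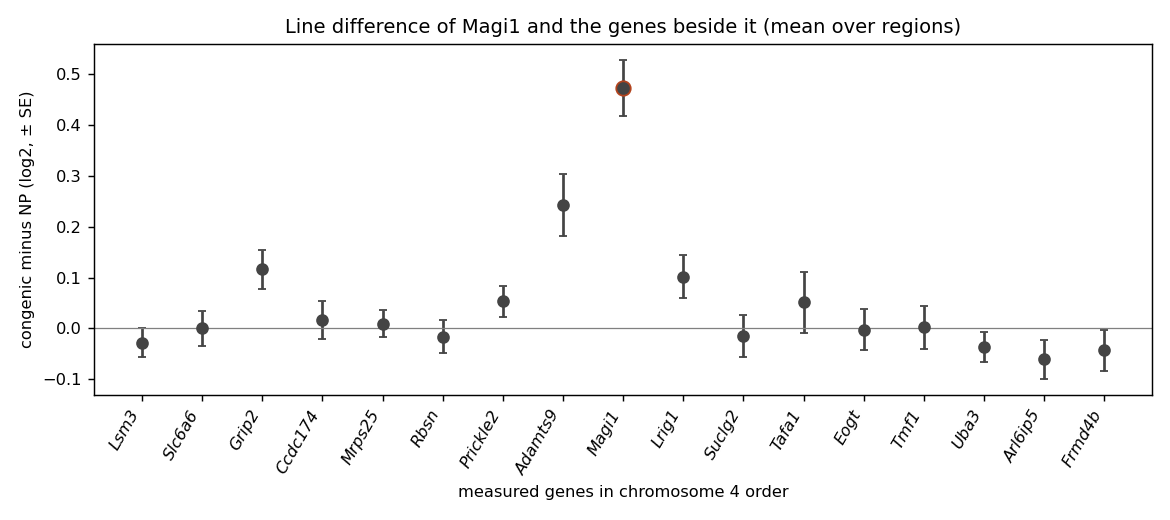
Congenic minus NP difference (log2, mean over regions, bars the SE) of Magi1 and the 8 measured genes on each side in chromosome 4 order, each by its brightest probe set. Magi1 lies at 0.47, Adamts9 at 0.24 and the other genes between -0.06 and 0.12.

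Across regions, 5 of the 6 Magi probe sets past the filter shared high values in amygdala and frontal cortex and low values in hippocampus and striatum. In a bulk dissection fewer cells of a type and less RNA per cell cannot be told apart. All 6 members past the filter differed between regions in limma's F test with the animal as a block, which says little, since 93.3% of all probe sets did. Set against the mean of the other 4 regions, 5 of 6 members were higher in amygdala (background 29.1%) and 5 of 6 in frontal cortex (background 35.6%). The remaining member was lower in both (background 18.6% in amygdala and 25.7% in frontal cortex). In hippocampus 6 of 6 were lower (background 21.2%). In striatum 5 of 6 were lower (background 43.3%) and 1 was higher (background 26.3%). In accumbens 3 were lower (background 38.9%) and 1 was higher (background 23.5%). The probe sets of a gene share its RNA and are not independent.

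The level of Magi3 by 1398866_at was 11.22 ± 0.39 in amygdala, 11.21 ± 0.10 in frontal cortex, 10.71 ± 0.29 in accumbens, 10.61 ± 0.25 in hippocampus and 10.46 ± 0.12 in striatum (log2, SD, n = 12 each). It was 0.48 ± 0.08 higher in amygdala than in the other regions (SE, adjusted p = 8.22e-06), 0.46 higher in frontal cortex (adjusted p = 6.41e-06) and lower in hippocampus (-0.29, adjusted p = 0.00323) and striatum (-0.48, adjusted p = 2.10e-06). In this order of levels only the step between frontal cortex and accumbens passed, at 0.50 (adjusted p = 6.46e-05). The accumbens difference of -0.16 was not called (adjusted p = 0.0866) and was -0.24 without the 7 arrays (adjusted p = 3.26e-06). By 1387753_s_at the order was amygdala at 10.55 ± 0.28, frontal cortex at 10.46 ± 0.11, hippocampus at 10.05 ± 0.20, striatum at 9.96 ± 0.07 and accumbens at 9.91 ± 0.17. Here too only the step below frontal cortex passed with all arrays, at 0.41 (adjusted p = 1.84e-05). Without the 7 arrays the step from amygdala to frontal cortex also passed for 1387753_s_at (0.16, adjusted p = 0.00173). For 1398866_at the step from accumbens to hippocampus then also passed (0.15, adjusted p = 0.0140).

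**Figure D4:**
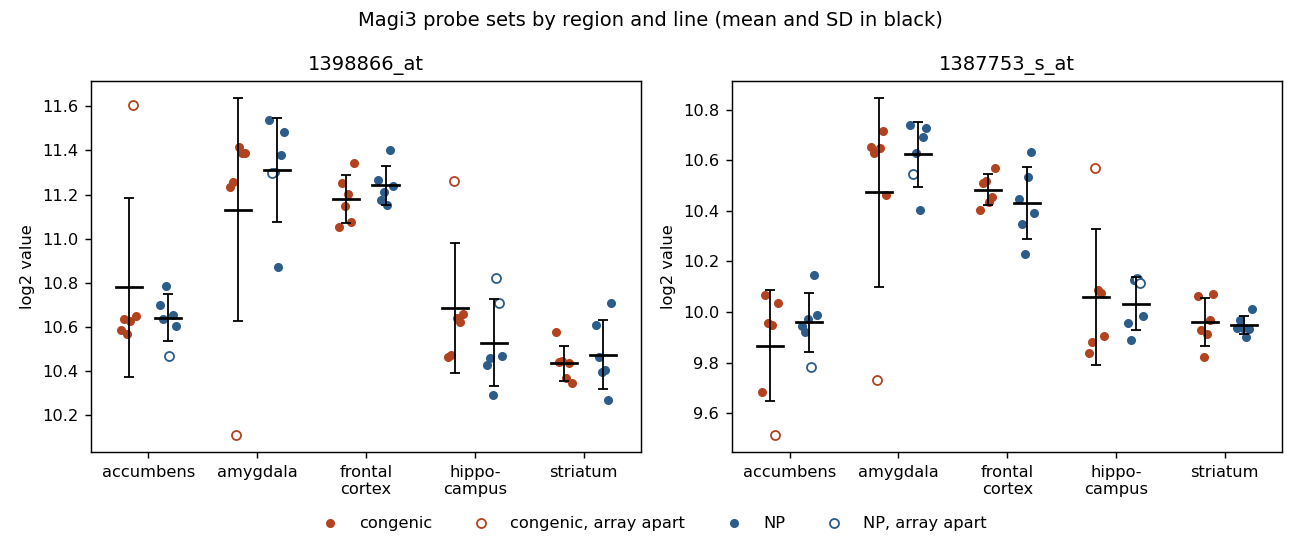
Log2 values of the 2 measured Magi3 probe sets by region, congenic in red and NP in blue, each point 1 animal, bars the mean and SD, open points the arrays that stood apart. Amygdala and frontal cortex lie highest, congenic and NP points overlap in every region, and the amygdala array of congenic animal 3 lies lowest of its group, at 10.11 and 9.73.

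Magi1 by 1390552_at and 1384504_at also had amygdala and frontal cortex above the other 3 regions. By 1390552_at the levels were 9.12 ± 0.22 in amygdala, 9.09 ± 0.22 in frontal cortex, 8.58 ± 0.20 in striatum, 8.58 ± 0.36 in accumbens and 8.57 ± 0.25 in hippocampus (log2, SD, n = 12 each), and only the step below frontal cortex passed (0.51, adjusted p = 1.30e-05). By 1384504_at the frontal cortex was 0.42 ± 0.08 higher than the other regions (SE, adjusted p = 6.82e-06) and the amygdala 0.34 higher (adjusted p = 3.45e-04).

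By the brightest Magi1 probe set, 1381871_at, the step that passed lay below accumbens rather than above it. Its levels were 10.10 ± 0.39 in frontal cortex, 10.10 ± 0.46 in amygdala, 10.04 ± 0.57 in accumbens, 9.59 ± 0.19 in striatum and 9.53 ± 0.40 in hippocampus (log2, SD, n = 12 each). Only the step between accumbens and striatum passed, at 0.45 ± 0.14 (SE, adjusted p = 0.00634). Without the 7 arrays the order was amygdala, frontal cortex, accumbens, striatum and hippocampus, which was then also the order of 1390552_at. The steps from accumbens to striatum (0.38, adjusted p = 2.38e-04) and from striatum to hippocampus (0.20, adjusted p = 0.0431) passed for 1381871_at. With all arrays it was lower in hippocampus (-0.43, adjusted p = 0.00117) and striatum (-0.35, adjusted p = 0.00551) and higher in amygdala (0.28, adjusted p = 0.0371) and frontal cortex (0.29, adjusted p = 0.0241), and its accumbens difference of 0.21 was not called (adjusted p = 0.0939). Its amygdala call was lost when any 1 of 9 animals was left out and was 0.49 without the 7 arrays (adjusted p = 2.30e-07). In congenic rats alone the median was 10.39 in accumbens, 10.39 in frontal cortex, 10.49 in amygdala and 9.63 in striatum. In NP rats it was 9.63 in accumbens, 9.79 in frontal cortex, 10.04 in amygdala and 9.55 in striatum. The step from accumbens to striatum thus lay mostly in the congenic rats, with means of 10.51 and 9.65, against 9.58 and 9.54 in NP rats. The interaction of line and region was not called for this probe set.

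Magi1 by 1397438_at ran the other way. Its levels were 8.68 ± 0.08 in striatum, 8.63 ± 0.22 in accumbens, 8.31 ± 0.08 in amygdala, 8.27 ± 0.10 in frontal cortex and 8.20 ± 0.10 in hippocampus (log2, SD, n = 12 each). It was higher in striatum by 0.33 ± 0.04 (SE, adjusted p = 1.66e-09) and in accumbens by 0.26 (adjusted p = 6.20e-07), and lower in amygdala (-0.14, adjusted p = 0.00488), frontal cortex (-0.18, adjusted p = 2.49e-04) and hippocampus (-0.27, adjusted p = 4.00e-07). Hippocampus was thus the one region in which the 4 measured Magi1 probe sets went the same way. Only the step between accumbens and amygdala passed (0.32, adjusted p = 1.27e-06). Over all members, 6 of 24 steps between neighbouring regions passed (background 27.8%), and 9 of 24 without the 7 arrays (background 40.1%).

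The disagreement can be put as correlations of region profiles, each over 5 region means of the same arrays and given as descriptions. Within Magi1 the profile correlation was 0.99 between 1390552_at and 1384504_at, 0.72 between 1381871_at and 1390552_at, and -0.51 between 1397438_at and 1384504_at. Without the 7 arrays these were 0.97, 0.92 and -0.46, and the profile of 1381871_at correlated at 0.81 with that of 1384504_at, against 0.71 with all arrays, so 1381871_at then differed less in profile from both. The profile of 1397438_at correlated at -0.08 with that of 1381871_at, and at -0.06 without the 7 arrays. It correlated at 0.98 with that of the low Magi1 probe set 1375605_at. The low Magi3 probe set, 1375479_at, also correlated at 0.98 with 1397438_at, and at -0.60 with 1398866_at of its own gene. Both measured probe sets of Magi3 correlated at 0.94, and 1390552_at of Magi1 at 0.97 with 1398866_at of Magi3. The Magi1 probe sets past the filter thus divided by profile. Within Magi3 only 1375479_at, below the filter, differed in profile from both measured probe sets. Probe sets below the filter had a regional pattern as a class, given further on. Within groups of region and line, where region and line means are removed, 1381871_at correlated at 0.82 with 1384504_at and at 0.36 with 1390552_at over the 60 arrays, and at 0.53 and 0.71 without the 7 arrays.

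**Figure D5:**
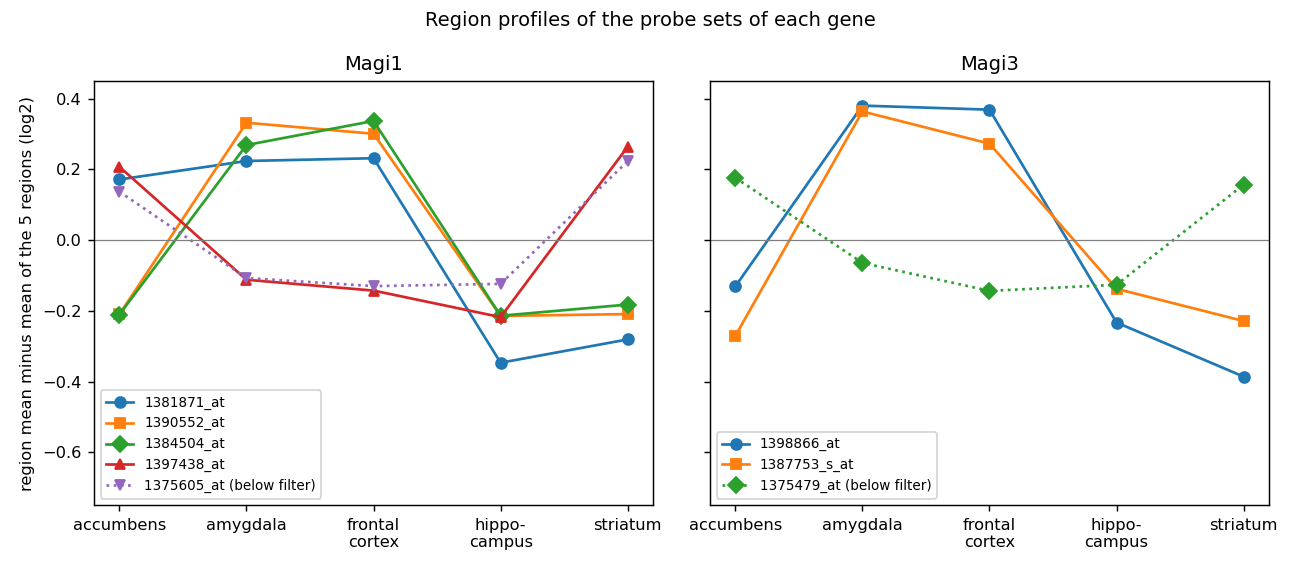
Mean of each region minus the mean of the 5 regions (log2) for each probe set of Magi1, left, and Magi3, right, with those below the filter dotted. Most of the probe sets past the filter peak in amygdala and frontal cortex, 1381871_at is also high in accumbens, and 1397438_at, 1375605_at and 1375479_at peak in accumbens and striatum.

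Dim probe sets as a class had a regional pattern of their own in the deposited values. Over all probe sets below the filter, the median difference from the other regions was 0.106 in accumbens and 0.0734 in striatum, and between -0.0680 and -0.0644 in the other regions. Over the probe sets between the 70th and 90th percentile of mean level, the medians were -0.0997 in accumbens and -0.123 in striatum, and between 0.0640 and 0.0781 in the other regions. After quantile normalization these medians lay between -0.0272 and 0.0125. Under it the low probe sets kept their direction but were smaller, 1375605_at with 0.20 in striatum, against 0.28 as deposited, and 1375479_at with 0.10, against 0.20 as deposited.

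For 1397438_at, a probe set near the middle of the range, the striatum and accumbens differences were 0.33 and 0.26 both after quantile normalization and as deposited. For 1398866_at they were -0.38 in striatum and -0.04 in accumbens after quantile normalization, against -0.48 and -0.16 as deposited. The 1381871_at differences were 0.22 in amygdala (adjusted p = 0.101) and 0.22 in frontal cortex (adjusted p = 0.0819) after quantile normalization, which ended both calls, and 0.32 in accumbens (adjusted p = 0.0118), which became a call. The line difference of 1381871_at was 0.48 after quantile normalization.

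Genes whose values followed the brightest probe set of each Magi gene were named by the highest and lowest correlation over the 60 arrays, with each line centred on its own mean. For 1381871_at of Magi1 the highest were Usp13, a deubiquitinase (0.80), the ubiquitin ligase gene Rnf217 (0.79) and Ppp1r26, a phosphatase regulator (0.79). The lowest were Bspry (-0.84) and Hpca, the calcium sensor hippocalcin (-0.81). For 1398866_at of Magi3 the highest were Klhl23 (0.91), Ppp1r26 (0.90) and Asxl3 (0.90), and the lowest were Prc1, a microtubule-bundling protein (-0.87), and Gjb1, a gap junction protein of oligodendrocytes (-0.86). Both brightest probe sets correlated at 0.77 with each other and at 0.73 without the 7 arrays. The arrays share animals and regions, and the correlations include the differences between regions. Without the 7 arrays, Bspry stayed among the lowest for Magi1 at -0.81, while its highest gene was Hmgb3 (0.81).

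Of 24 listed binding partners of MAGI proteins, 17 were measured, and 0 were called between the lines, with differences between -0.08 and 0.07 and a median of 0.01. Over all 10378 measured genes 11 were called and the median was 0.00. Between regions 16 of the 17 were called, where 9870 of the 10378 were. In accumbens 11 of 17 were lower, where 40.8% of all genes were, and 5 were higher, where 22.5% were (median -0.19, against -0.05 over all genes). In striatum 8 were higher, where 23.3% of all genes were, and 6 were lower, where 49.8% were (median 0.07, against -0.10 over all genes). Acvr2a, the activin receptor, was higher in amygdala (0.85, adjusted p = 2.96e-13) and lower in frontal cortex (-0.61, adjusted p = 4.56e-10) and striatum (-0.56, adjusted p = 2.27e-09). Synpo, an actin-binding protein of dendritic spines, was higher in striatum (0.83, adjusted p = 4.37e-15), as was Adgrb1, an adhesion receptor of synapses (0.48, adjusted p = 7.72e-11). Ptprz1, a receptor phosphatase, was lower in striatum (-0.55, adjusted p = 1.88e-17), and Dlgap1, a scaffold of the postsynaptic density, was lower in accumbens (-0.54, adjusted p = 6.74e-11).

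The 18 listed symbols of other scaffolds of the guanylate kinase family include older and newer names of the same gene (Mpp5 and Pals1, Mpp6 and Pals2). Of these scaffolds 12 were measured, 0 were called between the lines (median difference 0.04) and 12 were called between regions. In amygdala 4 of 12 were higher and 1 lower, where 33.9% of all genes were higher and 16.6% lower. In frontal cortex 3 were higher and 4 lower, where 39% of all genes were higher and 24.9% lower. In hippocampus 6 were higher and 4 lower, where 37.8% of all genes were higher and 19.2% lower. In striatum 3 were higher and 6 lower, close to the shares of all genes given above. The highest differences were those of Mpp7 in accumbens (0.65, adjusted p = 5.39e-12) and of Dlg2, which anchors glutamate receptors and potassium channels at synapses, in striatum (0.56, adjusted p = 4.97e-13). Mpp2 was also higher in striatum (0.44, adjusted p = 9.91e-17). The lowest were those of Dlg5 in striatum (-0.62, adjusted p = 6.20e-16), Dlg1 in hippocampus (-0.49, adjusted p = 7.33e-08) and Mpp7 in frontal cortex (-0.46, adjusted p = 3.25e-08).

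Cell type markers also differed between the regions in which the Magi probe sets differed, and their counts are to be read against the shares of all genes given above for each region. Oligodendrocyte markers were lower in amygdala and frontal cortex, 5 of 6 in each (median -0.32 and -0.35), and higher in hippocampus and striatum, 5 of 6 in each (median 0.28 and 0.37). Medium spiny neuron markers were higher in striatum (8 of 8, median 2.07) and accumbens (7 of 8, median 1.04). Endothelial markers were higher in frontal cortex (6 of 6, median 0.33), and choroid plexus markers in hippocampus (3 of 3, median 2.25). Of the endothelial markers 4 of 6 were lower in striatum (median -0.22), 3 of 6 in hippocampus (median -0.18) and 3 of 6 in accumbens (median -0.05). In amygdala 1 of 6 endothelial markers was higher and 0 were lower. Of the astrocyte markers 6 of 6 were higher in hippocampus, where 37.8% of all genes were higher. In striatum 5 of 6 astrocyte markers were lower (median -0.22), where 49.8% of all genes were lower. In amygdala, where 33.9% of all genes were higher, 4 of 6 astrocyte and 3 of 5 microglial markers were. No marker on any list was called between the lines. The part of cell composition in the regional differences of Magi1 and Magi3 was not tested.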

How the data were processed

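The labels' protocols describe biotin-labelled RNA of each rat and region on its own Affymetrix array. The deposited table holds 1 log2 value per probe set and array (4.58 to 16.01). Background correction, normalization and summary by the authors were not given in the sources used here. These values entered as they were, after 57 control probe sets were left out. Symbols came from the platform annotation, and chromosome, gene order and promoter sequence from RefSeq (GRCr8), where 20758 of 20826 probe sets with 1 symbol were matched.

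Tests used R 4.3.3 and limma 3.58.1 (lmFit, eBayes, 2-sided) on the 18625 probe sets at or above the 40th percentile of mean level, with Benjamini-Hochberg adjustment over all of them and calls at an adjusted p under 0.05. Regions and the interaction were fitted with the animal as a fixed block, lines on the mean of each animal. Where an array was left out, each region was centred first, and the animal's mean was taken over its remaining arrays. Figures used Python 3.11.15 and matplotlib 3.10.9. The fits were first tested on simulated data. A gene of a list was taken by its brightest probe set. All Magi probe sets were named, with the 3 highest and 2 lowest correlated genes per gene's brightest probe set, the 2 largest of the genes beside Magi1 and Magi2, and the largest called differences of each list.

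The members, the lists and the limits for arrays apart (median correlation with the region under 0.98, or correlation with its profile under 0.5) were chosen with earlier results of these data known. The alternatives covered the filter, quantile normalization, median centring, the arrays apart, the block and each animal left out. The labels number the animals, and a number recurs in the 5 regions of a single line, so it pairs regions within a line only. After the group means were removed, 2 arrays of 1 animal had a mean correlation of 0.0139 (120 pairs), and 2 arrays of different animals and regions one of -0.00184 (1320 pairs).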

Additional observations from a re-analysis of the deposited data

Results flagged for a closer look

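In 19 cases 1 of 6 animals lay far from its group, with a gap to its nearest neighbour above Dixon's critical share of the group's range, among 96 groups of Magi values looked at. Chance flags about 5% of such groups. Of the 19, 15 lie on arrays that stood apart from their labelled region.

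On the accumbens array of congenic 9, 1381871_at (11.31), 1384504_at (9.10) and 1398866_at (11.61) were the highest of their groups, and 1390552_at (7.71) and 1397438_at (8.08) the lowest. On the amygdala array of congenic 3, 1381871_at (9.01), 1384504_at (8.13), 1398866_at (10.11) and 1387753_s_at (9.73) were the lowest and 1375479_at (6.96) the highest. On the hippocampus array of the same rat, 1384504_at (9.00), 1398866_at (11.26) and 1387753_s_at (10.57) were the highest. These are the arrays labelled amygdala and hippocampus that resembled each other's region most. The mean of 1375479_at over the regions of this rat was the highest of its group (6.70).

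On the accumbens array of NP 8, 1381871_at (9.34) and 1397438_at (8.36) were the lowest. On arrays that did not stand apart, the lowest values were 7.91 for 1384504_at in striatum of NP 11, 5.84 for 1375605_at in accumbens of NP 5, and 10.87 for 1398866_at in amygdala of NP 8. The cause of these values was not tested.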

How the results depend on the processing

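With the filter at the 60th percentile only 3 Magi probe sets were left to test, so counts of calls were smaller by construction: 3 for the regions as a whole, 1 in accumbens, 3 each in amygdala, frontal cortex, hippocampus and striatum, and 3 of 12 steps between neighbouring regions. Counts of members called under each other alternative were within 1.5 times of those reported, and no called difference of a member changed sign. With 1 animal left out at a time, members called were 4 to 6 in accumbens, 5 to 6 in amygdala, frontal cortex and hippocampus, and 6 in striatum. Single calls that changed were those of 1381871_at in amygdala, frontal cortex (also lost without animal 1, 0.26, adjusted p = 0.0610) and accumbens (also gained without animal 3, adjusted p = 0.0450), of 1398866_at in accumbens (gained without the arrays apart, without animal 3 and without animal 9), and of 1387753_s_at in hippocampus (lost without animal 2, adjusted p = 0.0507).

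Without the replicate block on the animal, 6 members were called for the regions and 0 for the interaction, as with it, and with the animal as a random block the line difference of 1381871_at was 0.47. It lay between 0.44 and 0.52 when single animals were left out. The block changed no call. Each line had 6 animals and each RNA was measured on 1 array, so no spread of 1 RNA measured again can be given.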
